A study of Mus musculus with 12 samples.

Results

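Acod1 and 7 inflammatory effector genes of activated myeloid cells were followed through the mouse aorta after elastase infusion: Acod1, Il1b, Il1rn, Nos2, Arg1, Ptgs2, Tnf and Clec4e. These 8 genes of 24341 with a symbol were picked by name around Acod1, from earlier results on the same counts, so their own levels and differences are a description and carry no evidence of their direction. Of the 8, 7 passed the filter on low counts, beside 12239 genes of the whole table, and Il1rn did not. The RNA came from whole aorta of 10-week-old male C57BL/6J mice, for which the labels name no genetic change, with 4 libraries in each of 3 groups. Saline control mice received a saline infusion into the infrarenal segment and gave their aorta at day 7. The other mice received porcine pancreatic elastase (PPE), which breaks down the elastic fibres of the wall so that it dilates, into the same segment. Their aorta was taken at day 7 for the group named PPE week 1 and at day 14 for the group named PPE week 2. No saline group was taken at day 14, so in PPE week 2 against saline the treatment and the later harvest cannot be told apart. Infusion of elastase damages the wall directly at surgery, and the model starts from that injury.

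Macrophages and neutrophils that meet microbial products or damaged tissue switch on a common set of effector genes within hours, driven largely by NF-kappaB, AP-1, C/EBP and interferon-regulated factors. Acod1 encodes the mitochondrial enzyme that turns cis-aconitate of the citric acid cycle into itaconate, a metabolite that blocks succinate dehydrogenase and activates the Nrf2 stress response. Il1b and Tnf are secreted cytokines, Il1rn is the natural antagonist of the interleukin-1 receptor, and Clec4e (Mincle) is a lectin receptor that senses mycobacterial glycolipids and products of dead cells. Nos2 and Arg1 are enzymes that compete for arginine, the first to make nitric oxide and the second to make ornithine and urea, while Ptgs2 (cyclooxygenase-2) makes the precursor of the prostaglandins. Several of these genes can also be switched on in cells that are not myeloid, Ptgs2 among them in smooth muscle, endothelium and fibroblasts.

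Library totals lay between 8343313 and 12269131 counts. The ribosomal RNA precursor NR_046233 took 36.2 to 49.9% of them in saline, 21 to 34.6% at PPE week 1 and 19.5 to 22.1% at PPE week 2. That share was lower than in saline at each PPE week (exact permutation test, two-sided, p = 0.0286 for each, which is the lowest p that 4 libraries against 4 allow). The tissue label held for smooth muscle, whose 7 markers summed to 4570 to 6118 CPM (counts per 1000000 counts of a library, TMM-scaled) in saline, 1565 to 2801 at PPE week 1 and 4263 to 9568 at PPE week 2, and for endothelium, whose 7 markers summed to 639 to 848, 672 to 783 and 706 to 1182 CPM, with Pecam1 and Tek at 0 in all libraries. Within PPE week 2 the libraries stood apart: the 12 macrophage markers summed to 3173 and 3590 CPM in replicates 2 and 4 but to 1456 and 1453 CPM in replicates 1 and 3. Genes with several overlapping transcript models were undercounted: 77.5% of 1626 accessions that share every base with another model were at 0 in all libraries, against 2.39% of 12995 with at least 100 unshared bases. Acod1, Il1b, Arg1, Ptgs2 and Clec4e each have a single accession and are not affected, whereas Il1rn, Nos2 and Tnf are. In RNA of whole tissue, a higher level per cell and a larger number of cells that express a gene cannot be told apart.

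RefSeq's promoter table for GRCm38.p6 held windows for 6 of the 8 genes, and the 250 bases before the transcript start are shown for 4 of them. Acod1, Il1b and Clec4e are genes whose levels at PPE week 1 all lay above saline. Ptgs2 overlapped saline there, as did Tnf and Il1rn, whose windows are not shown, and Nos2, which had no window. Capitals mark matches to the motifs searched: TATAAA on the sense strand (TATA box), and on both strands TGANTCA (AP-1), TTGCNNAA (C/EBP), TGACGTCA (CRE), GAGGAA (the core bound by PU.1) and the kappaB motif. Each window is written 5′ to 3′ on the strand of its gene.
Acod1, chr14:103046762-103047011, plus strand: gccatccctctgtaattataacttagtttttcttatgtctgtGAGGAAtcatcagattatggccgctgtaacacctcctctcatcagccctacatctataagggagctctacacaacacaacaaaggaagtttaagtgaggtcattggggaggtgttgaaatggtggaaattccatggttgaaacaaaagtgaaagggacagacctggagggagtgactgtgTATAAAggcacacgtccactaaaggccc
Il1b, chr2:129371140-129371389, minus strand: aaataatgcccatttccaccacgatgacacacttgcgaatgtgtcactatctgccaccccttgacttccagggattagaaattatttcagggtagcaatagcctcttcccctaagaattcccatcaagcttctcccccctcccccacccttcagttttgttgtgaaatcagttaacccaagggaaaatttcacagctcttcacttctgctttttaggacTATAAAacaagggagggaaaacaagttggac
Clec4e, chr6:123289872-123290121, minus strand: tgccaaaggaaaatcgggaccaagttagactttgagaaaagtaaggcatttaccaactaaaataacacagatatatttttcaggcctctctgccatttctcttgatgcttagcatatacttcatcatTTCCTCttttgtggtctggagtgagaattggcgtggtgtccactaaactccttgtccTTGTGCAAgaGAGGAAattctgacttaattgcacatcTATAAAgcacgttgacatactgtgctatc
Ptgs2, chr1:150099781-150100030, plus strand: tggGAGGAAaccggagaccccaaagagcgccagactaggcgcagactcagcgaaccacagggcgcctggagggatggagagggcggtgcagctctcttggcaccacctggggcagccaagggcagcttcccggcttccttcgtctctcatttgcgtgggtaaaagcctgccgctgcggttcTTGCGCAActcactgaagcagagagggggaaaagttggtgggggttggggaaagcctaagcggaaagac
A TATAAA lay 28 bases before the start in Acod1, 31 in Il1b and 29 in Clec4e, and also 29 before that of Tnf, where TATA boxes usually sit, whereas 7.59% of 32851 promoter windows of this length held it anywhere. The windows of Ptgs2 and Il1rn had none, and a link between this motif and the levels at PPE week 1 was not tested. A C/EBP match began 69 bases before the start of Ptgs2 and 66 before that of Clec4e, and 9.56% of all windows held one. GAGGAA was present in the windows of Acod1, Ptgs2, Tnf and Clec4e, and in 23.3% of all windows. The AP-1 letters were found before 1 of the starts of Il1rn, 141 bases upstream, and in 6.75% of all windows. None of these windows held the kappaB letters (7.25% of all windows), the ISRE letters (2.98%) or the CRE letters (1.55%). This says only that these letters are not in these 250 bases.

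Acod1 RNA was almost absent from saline aorta, abundant in all 4 aortas a week after elastase, and again near 0 in 2 of 4 aortas a week later. Acod1 (NM_008392, chr14:103047012-103056573, GRCm38) had 3.82, 0.297, 2.35 and 1.29 CPM in saline replicates 1 to 4. At PPE week 1 it had 50.9, 210, 63.2 and 101 CPM. At PPE week 2 it had 0, 18.5, 0.0874 and 14.2 CPM. The lowest library of PPE week 1 lay above every library of the other groups, and replicate 2 of PPE week 1 was the highest of all 12. The week 2 libraries split into replicates 2 and 4, which lay above all saline libraries, and replicates 1 and 3, which had 0 and 1 count. In replicate 1 a count of 0 allows up to 0.279 CPM, the level of 3 counts, against 193 and 198 counts in replicates 2 and 4. This limit covers counting error only and takes counts as independent, whereas 66 to 75.6% of low counts per library were even. Replicates 1 and 3 and saline replicate 2, with 2 counts, cannot be told apart at this depth. Group means (± SD, n = 4) were 1.94 ± 1.51 CPM in saline, then 106 ± 72.5 and 8.2 ± 9.58 CPM at the first and second PPE week. The fitted level at PPE week 1 was 51.7-fold that of saline, a log2 fold change of 5.69 ± 1.43 (SE). At PPE week 2 the log2 fold change was 2.00 ± 1.32 against saline and -3.69 ± 1.26 against PPE week 1. With each library left out in turn the difference from saline at week 2 lay between 1.26 and 2.61, but limma-voom turned it to -0.41, so no direction is given for it.

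Il1b, the secreted cytokine that is cleaved by caspase-1 after priming, followed the same order of groups from a higher base. Il1b (NM_008361, chr2:129364569-129371164) had 56.5, 14.4, 29.3 and 16.8 CPM in saline replicates 1 to 4. The PPE week 1 values were 132, 402, 136 and 227 CPM, and at PPE week 2 they were 8.57, 61.9, 6.29 and 99 CPM. Every PPE week 1 library lay above every library of the other groups, with replicate 2 again highest. Replicates 2 and 4 of PPE week 2 lay above all saline libraries, as for Acod1, and replicates 1 and 3 lay below all saline libraries. Means were 29.3 ± 19.3, 224 ± 126 and 43.9 ± 44.8 CPM in saline, PPE week 1 and PPE week 2 (SD, n = 4). Relative to saline the log2 fold change was 2.93 ± 0.91 at PPE week 1 and 0.58 ± 0.86 at PPE week 2, and from the first to the second week it was -2.35 ± 0.89. The value at week 2 against saline was -0.21 without PPE week 2 replicate 4.

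Il1rn, which blocks the receptor that Il1b binds, had too few counts to be followed. Its best covered accession (NM_001039701, chr2:24336860-24351491) has 151 bases of its own among 1986 exonic bases and collected 57 counts in all 12 libraries, and the other Il1rn accessions collected 28 and 22. In saline it had 7, 0, 0 and 0 counts in replicates 1 to 4, at PPE week 1 it had 7, 8, 8 and 0, and at PPE week 2 it had 0, 0, 7 and 20. All groups overlapped. These counts come from a small part of the transcript, so the level of the antagonist relative to Il1b is not given.

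Clec4e, the receptor Mincle, was present at low level in saline and higher in every aorta of PPE week 1. Clec4e (NM_019948, chr6:123281789-123289871) had 2.69, 16.2, 2.61 and 10.9 CPM in saline replicates 1 to 4. The PPE week 1 libraries had 22.4, 84.5, 29.9 and 42.7 CPM, and at PPE week 2 it had 2.98, 19.8, 0.0874 and 16.2 CPM. All PPE week 1 libraries lay above all others, and PPE week 2 spread over a 227-fold range that covered the whole of saline. The low end of that range, replicate 3, rests on 1 count, so its size is not precise. Means were 8.09 ± 6.65, 44.9 ± 27.7 and 9.78 ± 9.71 CPM (SD, n = 4). Relative to saline the log2 fold change was 2.48 ± 1.06 at PPE week 1 and 0.29 ± 1.03 at PPE week 2, and from the first to the second week it was -2.19 ± 1.04.

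**Figure D1:**
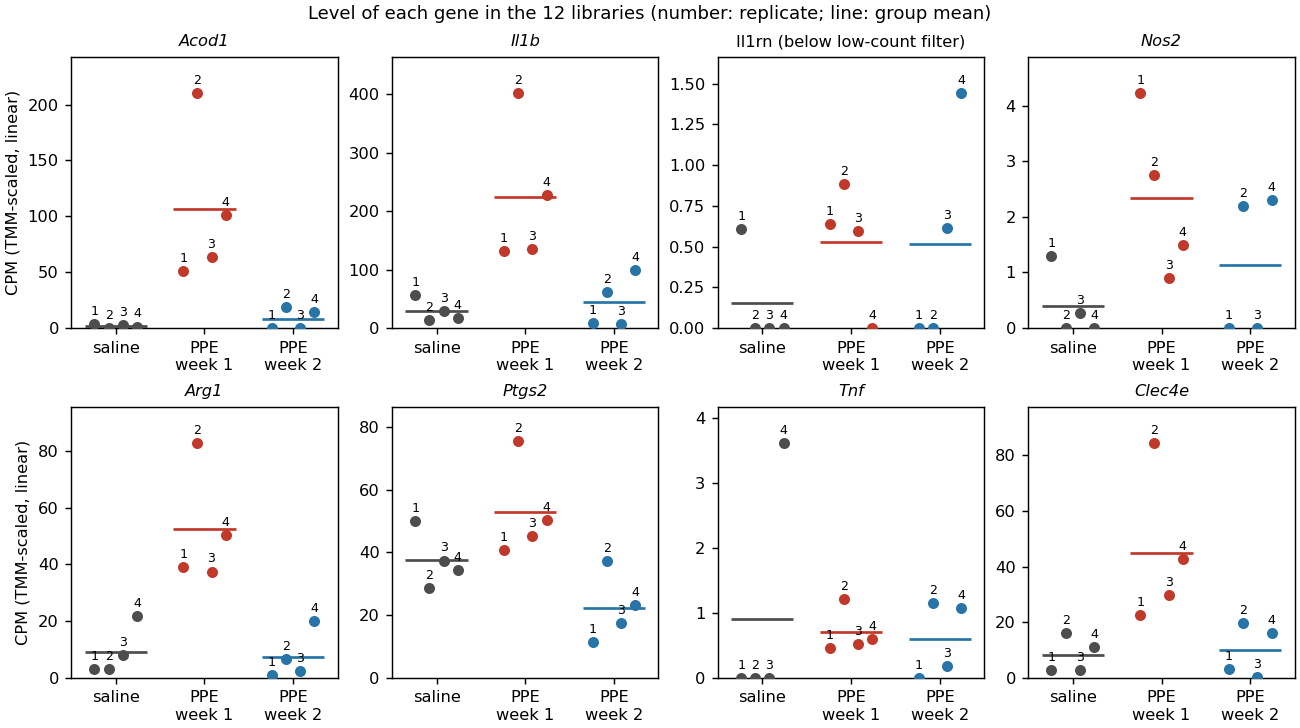
Level of each of the 8 genes in the 12 libraries, in TMM-scaled CPM on a linear axis that differs between panels. Points are libraries with their replicate number, and lines are group means of 4 libraries. In Acod1, Il1b, Arg1 and Clec4e the lowest PPE week 1 library lies above all saline libraries, and in Il1rn, Nos2, Ptgs2 and Tnf these 2 groups overlap.

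Arg1, arginase-1, which is often taken as a mark of alternatively activated and wound macrophages, had 2.95, 2.97, 8.09 and 21.8 CPM in saline replicates 1 to 4 (NM_007482, chr10:24915207-24927470). In the first PPE week it had 39, 83, 37.5 and 50.4 CPM, and at PPE week 2 it had 0.931, 6.61, 2.27 and 19.9 CPM. PPE week 1 lay above all other libraries, and the saline and PPE week 2 groups overlapped. Means were 8.96 ± 8.91, 52.5 ± 21.2 and 7.43 ± 8.66 CPM (SD, n = 4), with a log2 fold change of 2.55 ± 0.90 for PPE week 1 against saline. Against PPE week 1 the PPE week 2 value was -2.81 ± 0.90, and against saline it was -0.25 ± 0.87. The last of these turned to 0.68 without saline replicate 4, the highest saline library for Arg1.

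Nos2, the inducible nitric oxide synthase of classically activated macrophages, was near the detection limit throughout. Its accession NM_010927 (chr11:78920787-78960226) has 867 of 4192 exonic bases to itself and collected 170 counts in the 12 libraries, and the other accessions of Nos2 collected 13 and 1. It had 1.3, 0, 0.261 and 0 CPM in saline replicates 1 to 4, then 4.22, 2.76, 0.896 and 1.49 CPM at PPE week 1, and 0, 2.2, 0 and 2.3 CPM at PPE week 2. All 4 libraries of PPE week 1 had Nos2 counts, from 12 to 46, against 2 of 4 libraries in each other group, and saline replicate 1 lay above PPE week 1 replicate 3. Its fitted log2 fold change relative to saline was 2.48 ± 1.55 at PPE week 1 and 1.43 ± 1.51 at PPE week 2, and from the first to the second week it was -1.04 ± 1.46. A level of Nos2 relative to Arg1 is not given, since most of the Nos2 transcript was shared between models.

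Ptgs2 RNA was present in all saline aortas, and its levels at PPE week 2 all lay below those at PPE week 1. Ptgs2 (NM_011198, chr1:150100031-150108234) had 50.1, 28.7, 37.4 and 34.5 CPM in saline replicates 1 to 4. Libraries of PPE week 1 had 40.7, 75.5, 45.3 and 50.3 CPM, and at PPE week 2 it had 11.4, 37.1, 17.5 and 23.1 CPM. PPE week 1 overlapped saline through saline replicate 1, and all PPE week 2 libraries lay below all PPE week 1 libraries. Means were 37.7 ± 9.06, 53 ± 15.5 and 22.2 ± 11 CPM (SD, n = 4). Its fitted log2 fold change relative to saline was 0.49 ± 0.31 at PPE week 1 and -0.76 ± 0.31 at PPE week 2, and from the first to the second week it was -1.25 ± 0.31.

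Tnf was barely counted. NM_013693 (chr17:35199367-35202007) has 177 of 1639 exonic bases to itself and collected 86 counts in the 12 libraries, while the other Tnf accession collected 0. It had 0, 0, 0 and 3.62 CPM in saline replicates 1 to 4, then 0.458, 1.21, 0.523 and 0.598 CPM at PPE week 1, and 0, 1.15, 0.175 and 1.08 CPM at PPE week 2. The saline mean rests on replicate 4, which held all 28 saline counts and was the highest of the 12 libraries, while the other 3 were at 0. The log2 fold change at PPE week 1 against saline was -0.37 ± 1.62 and turned to 5.90 without that library, so no direction is given for Tnf.

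The 7 genes past the filter were counted against the whole table as follows. At PPE week 1 against saline, 1 of 7, Acod1, had an adjusted p under 0.05 (edgeR quasi-likelihood test with Benjamini-Hochberg adjustment, 0.0408), beside 7.89% of all 12756 accessions tested. For the others the adjusted p was 0.0871 (Il1b), 0.12 (Arg1), 0.202 (Clec4e), 0.395 (Nos2), 0.401 (Ptgs2) and 0.939 (Tnf). In that comparison the ranges of 4 of 7 genes did not overlap, beside 21.1% of all accessions. At PPE week 2 against saline 0 of 7 were called by edgeR, DESeq2 or limma-voom, 1 (Ptgs2) had an unadjusted p under 0.05, and the background was 2.65%. There the ranges of 0 of 7 were separate, beside 8.99%. Between the PPE weeks 1 of 7, Ptgs2, was called (adjusted p = 0.0247), beside 6.59%, and the ranges of 5 of 7 were separate, beside 15.9%. The genes were chosen from these same contrasts, so nothing is read from these counts. The median log2 fold change of the 7 was 2.48, 0.29 and -2.19 in the 3 comparisons, beside 0.00, 0.05 and 0.02 over all accessions.

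The call of Acod1 was not stable: 11 of 23 alternatives kept it and 12 lost it. Its adjusted p rose to between 0.0511 and 0.121 when 1 library was left out, with a log2 fold change of 5.13 to 6.30. This held for any of the 8 saline or PPE week 1 libraries and for PPE week 2 replicate 4. With the ribosomal precursor share as a covariate the adjusted p was 0.277 and the log2 fold change 5.18. That share did not overlap between saline and PPE week 1, so this fit can hardly separate it from group. DESeq2 and limma-voom each called 3 of the 7 at PPE week 1. These were Acod1 (adjusted p = 0.00115 and 0.0475), Il1b (0.0061 and 0.0245) and Arg1 (0.0343 and 0.0138). The edgeR fit of 8 libraries gave 0.000662 for Acod1. The call of Ptgs2 between the PPE weeks was lost without PPE week 1 replicate 2 (adjusted p = 0.106) or PPE week 2 replicate 3 (0.08), with scaling by library size (0.0929), in the fit of 8 libraries (0.0626) and with the precursor share as a covariate (0.133). Its log2 fold change lay between -1.61 and -1.02 under all alternatives run.

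**Figure D2:**
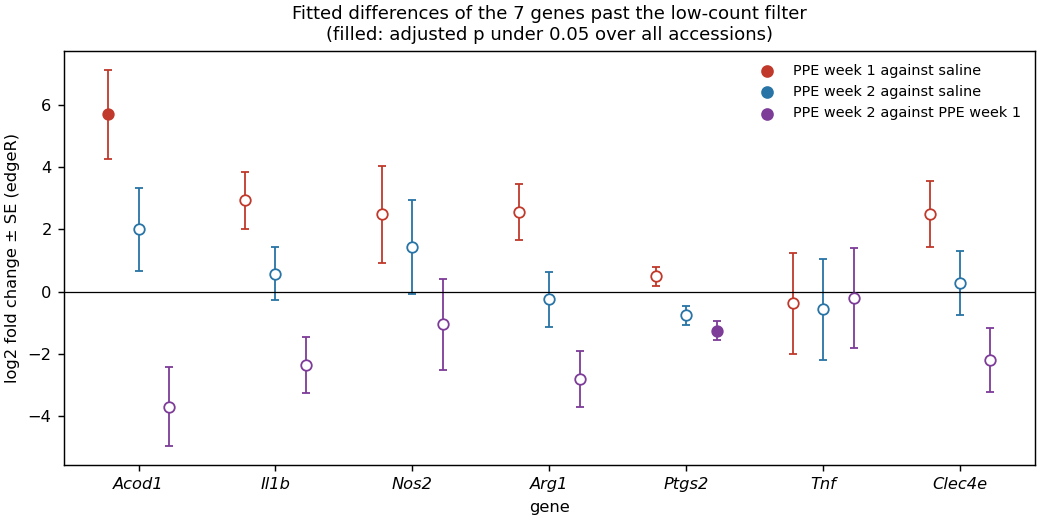
Fitted log2 fold change (vertical axis) with its SE for the 7 genes past the low-count filter in the 3 comparisons, from edgeR, with filled points at an adjusted p under 0.05. Acod1 at PPE week 1 against saline (5.69) and Ptgs2 between the PPE weeks (-1.25) are the filled points, and the error of Tnf and Nos2 is wide.

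Per kilobase of exon, which allows genes to be compared, the 5 genes with a single accession changed places between groups. In saline the mean level was 21.6 ± 14.2 CPM per kb for Il1b, 8.47 ± 2.03 for Ptgs2, 6.07 ± 6.04 for Arg1, 3.21 ± 2.64 for Clec4e and 0.74 ± 0.575 for Acod1 (SD, n = 4). The order at PPE week 1 was 165 ± 93.1 for Il1b, 40.6 ± 27.7 for Acod1, 35.5 ± 14.3 for Arg1, 17.8 ± 11 for Clec4e and 11.9 ± 3.49 for Ptgs2. Acod1 thus stood last of the 5 in saline and second at PPE week 1, where it and Arg1 did not differ beyond their spread. At PPE week 2 the means were 32.4 ± 33 for Il1b, 5.03 ± 5.86 for Arg1 and 4.99 ± 2.46 for Ptgs2. Those of Clec4e and Acod1 were 3.88 ± 3.86 and 3.13 ± 3.65. Apart from Il1b, the means did not differ beyond their spread between libraries. Genes were not compared within each library, here or at PPE week 1.

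The summed markers of macrophages, monocytes and neutrophils moved with these genes, though not every single marker did. The 12 macrophage markers, of which Itgam was at 0 in all libraries, summed to 2270 to 2704 CPM in saline, 4285 to 5416 at PPE week 1 and 1453 to 3590 at PPE week 2. Of the 10 tested, 2 rose and 0 fell at PPE week 1 by edgeR, beside 7.89% of all accessions called in either direction. Mertk went the other way, at 74.5 to 87.2 CPM at PPE week 1 and 93.1 to 163 CPM in saline. Its log2 fold change was -0.53 ± 0.20 (edgeR adjusted p = 0.123), and that of Mrc1 was 0.08 ± 0.17. The 7 monocyte markers summed to 226 to 281, 693 to 898 and 112 to 510 CPM, and 3 of the 7 rose at PPE week 1. Among them F13a1 had a log2 fold change of 0.22 ± 0.86 there. The 12 neutrophil markers, with S100a9 at 0 in all libraries, summed to 8.4 to 24.4, 42.8 to 149 and 4.37 to 20.8 CPM. Cxcr2 (mean 37.5 CPM) and S100a8 (26.8 CPM) were the largest parts of the mean sum of 87.7 CPM at PPE week 1. The tested markers Mmp8, Retnlg and Ngp overlapped saline there. Elane, below the filter, had a lower mean than in saline (0.177 against 0.874 CPM). Of the 5 neutrophil markers tested, 0 were called at PPE week 1 by edgeR, 2 had an unadjusted p under 0.05, and DESeq2 called 2 and limma-voom 0. The sums at PPE week 1 were 1.92-fold those of saline for macrophage, 3.06-fold for monocyte and 5.75-fold for neutrophil markers, and none of these overlapped (two-sided exact permutation p = 0.0286 each). The sums of T and NK cell markers moved likewise, from 18.3 to 36.4 CPM in saline to 107 to 146 CPM at PPE week 1. Replicate 2 of PPE week 1, highest for Acod1, Il1b, Arg1, Ptgs2 and Clec4e, was also highest for macrophage and neutrophil markers, with 5416 and 149 CPM.

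The genes were also set against the marker sum of their own library, a ratio chosen after the values were seen. Per 1000 CPM of macrophage markers, Acod1 had 1.67, 0.11, 1 and 0.569 CPM in saline replicates 1 to 4 and 11.9, 38.8, 14.5 and 22.8 at PPE week 1, a 26.3-fold higher mean without overlap. PPE week 2 had 0, 5.82, 0.0602 and 3.96 on that scale, below all PPE week 1 libraries. The same ratio was 3.75-fold higher for Il1b without overlap, and 2.87-fold higher for Arg1 and 2.86-fold for Clec4e with overlap. For Ptgs2 the mean ratio at PPE week 1 was 0.709 times that of saline with overlap. Against monocyte and neutrophil markers the Ptgs2 ratio was 0.46 and 0.231 times that of saline without overlap. For Acod1 the ratio to monocyte markers was 18.2-fold higher without overlap. It was 2.54-fold higher for Il1b, 1.82-fold for Arg1 and 1.65-fold for Clec4e, each with overlap. Against neutrophil markers the Acod1 ratio was 7.72-fold higher without overlap, from 0.0122 to 0.223 CPM per marker CPM in saline to 0.931 to 1.41 at PPE week 1. On that scale the mean ratio at PPE week 1 was 1.2 times that of saline for Il1b, 0.711 times for Arg1 and 0.852 times for Clec4e, each with overlap, so that the direction for Arg1 and Clec4e turned with the marker list. Which cells held the RNA was not measured, and the part of cell numbers in the differences was not tested beyond these ratios.

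**Figure D3:**
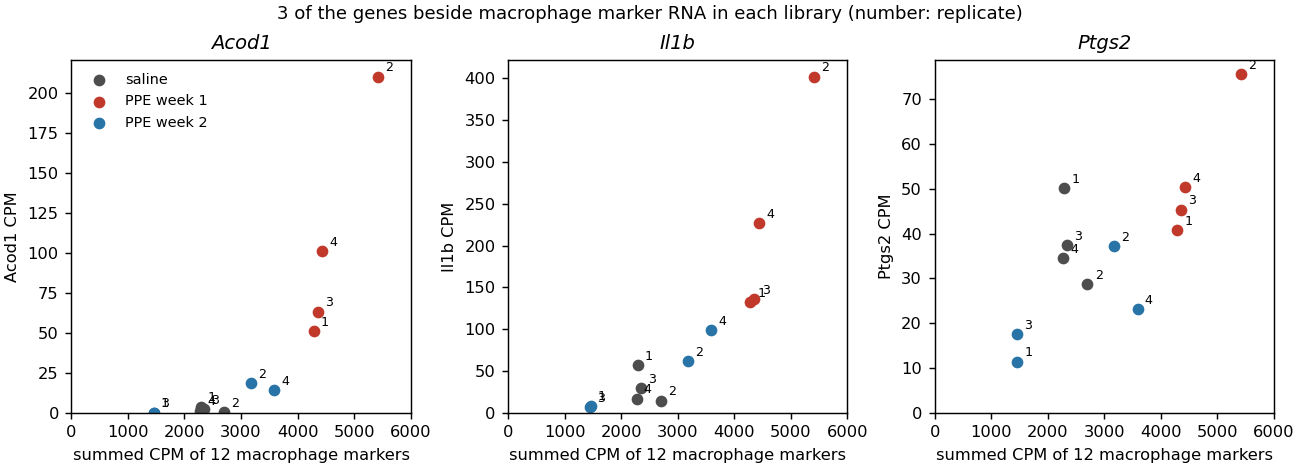
CPM of Acod1, Il1b and Ptgs2 (vertical axes, linear) against the summed CPM of 12 macrophage markers (horizontal axes) in the 12 libraries, coloured by group and numbered by replicate. PPE week 1 lies at 4285 to 5416 marker CPM, and replicates 2 and 4 of PPE week 2 lie between it and saline for Acod1 and Il1b.

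The other genes of the pathways around the 8 genes were grouped in 6 lists by function, 121 genes of which 99 could be tested. The lists were written with earlier results of these data known, so their counts beside the background are a description. In the first week 14 of the 99 rose over saline and 1 fell, or 15.2% beside the background of 7.89%. At PPE week 2 against saline 1 rose and 0 fell, which is 1.01% beside 2.65%. From the first to the second week 2 rose and 12 fell, which is 14.1% beside 6.59%. All 3 comparisons share libraries, so the counts are not independent of each other. With the ribosomal precursor share as a covariate, 0 of the 99 were called in any of the 3 comparisons. That share did not overlap between saline and either PPE group. The fit can therefore hardly separate share from group, and nothing is concluded from the lost calls.

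Of the interleukin-1 pathway, 4 of 18 tested genes rose and 0 fell at PPE week 1, with a median log2 fold change of 1.21 over the list. Gsdmd, the pore-forming protein through which mature interleukin-1 leaves the cell, had 37, 23.6, 27.1 and 39 CPM in saline and 83.1, 104, 69.8 and 85.4 CPM at PPE week 1, a log2 fold change of 1.43 ± 0.27 (edgeR adjusted p = 0.00446). Every PPE week 1 library lay above every saline library. Myd88, the adaptor of interleukin-1 and Toll-like receptors, rose by 1.21 ± 0.26 (adjusted p = 0.0108), Casp4, a caspase that cleaves Gsdmd, by 1.00 ± 0.28 (0.0356) and Irak3, a brake on that signalling, by 0.81 ± 0.23 (0.0381). From week 1 to week 2 of PPE 4 genes of the list fell: Casp4 by 1.21, Gsdmd by 1.03, Myd88 by 0.94 and Nlrp3, the inflammasome sensor, by 2.03 (adjusted p = 0.046), the last named only to complete the count. At PPE week 2 against saline 0 of 18 were called by edgeR and by limma-voom, DESeq2 called 1, and 2 had an unadjusted p under 0.05. The ligand Il1a had 0, 0, 0 and 2.58 CPM in saline and 3.39, 12.8, 3.14 and 4.28 CPM at PPE week 1, separate ranges, with a log2 fold change of 3.18 ± 1.53 (adjusted p = 0.242). The decoy receptor Il1r2, found on neutrophils and monocytes, had 9.91, 0.149, 1.17 and 6.72 CPM in saline, 21.1, 41.9, 19.3 and 29.6 CPM at PPE week 1 and 0, 13, 0 and 11.6 CPM at PPE week 2, and did not pass the test (adjusted p = 0.325 at PPE week 1). The signalling receptor Il1r1 lay between 1.29 and 9.22 CPM in saline and between 2.54 and 6.07 CPM at PPE week 1, with a log2 fold change of -0.22 ± 0.87 (adjusted p = 0.929).

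Of the TNF pathway, 5 of 13 tested genes rose at PPE week 1 and 0 fell, with a median of 0.74. Tnfrsf1a, the widely expressed TNF receptor, had 103, 118, 114 and 113 CPM in saline and 182, 212, 165 and 165 CPM at PPE week 1, a log2 fold change of 0.69 ± 0.13 (adjusted p = 0.00455), although its ligand was barely counted. The groups did not overlap, and at PPE week 2 it had 123, 107, 111 and 135 CPM, a fall of 0.61 on the log2 scale from PPE week 1 (adjusted p = 0.0102). Birc3, an inhibitor of TNF-driven cell death, rose by 1.11 ± 0.22 (0.00684), Tnfaip2, a gene induced by TNF, by 1.75 ± 0.37 (0.0145) and Nfkb1, a subunit of NF-kappaB, by 0.66 ± 0.16 (0.0178). The fifth was Rela, the partner subunit, at 0.74 ± 0.19 (0.0271), named only to complete the count. Between the PPE weeks Tnfrsf1a, Birc3 and Tnfaip2 fell, while Nfkb1 had a log2 fold change of -0.22 ± 0.16 (0.475). Tnfrsf1b, the TNF receptor of leukocytes, had 131, 95.3, 109 and 124 CPM in saline, 212, 355, 227 and 270 CPM at PPE week 1 and 57.4, 190, 61 and 177 CPM at PPE week 2. Its ranges in saline and PPE week 1 were separate, and its log2 fold change of 1.21 ± 0.37 did not pass the test (adjusted p = 0.0745).

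Of the pattern recognition receptors and their adaptors, 5 of 14 tested genes rose at PPE week 1 and 0 fell, with a median of 1.54. Fcer1g, the signalling chain that Clec4e pairs with, had 99.2, 113, 96.9 and 78.9 CPM in saline, 320, 416, 297 and 232 CPM at PPE week 1 and 71.6, 161, 42.4 and 159 CPM at PPE week 2. It rose by 1.70 ± 0.37 at PPE week 1 (adjusted p = 0.0186) and fell by 1.54 between the PPE weeks (0.0309), with replicates 2 and 4 of PPE week 2 above replicates 1 and 3. Card9, the adaptor downstream of Fcer1g, rose by 1.53 ± 0.39 (0.0249), and its partner Bcl10 had 0.80 ± 0.27 (0.0759) and fell by 1.51 between the PPE weeks (0.00369). The scavenger receptor Msr1 rose by 1.92 ± 0.44 (0.0143), Tlr13, a sensor of bacterial ribosomal RNA, by 1.41 ± 0.35 (0.024) and the lipopolysaccharide coreceptor Cd14 by 1.56 ± 0.40 (0.0271). Card9 and Cd14 are named only to complete the count. Clec4d, the close relative of Clec4e next to it in the genome, was listed at 0 in all 12 libraries. That 0 is not read as absence, since transcript models that share every base with another were mostly at 0. Whether Clec4d is such a case was not tested.

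The remaining lists gave few calls. Of 14 tested genes of arginine and nitric oxide metabolism, 0 were called at PPE week 1 by edgeR and by limma-voom, DESeq2 called 1, and 2 had an unadjusted p under 0.05. Arg2, the mitochondrial arginase, had 1.74, 0.892, 0.391 and 2.84 CPM in saline and 5.5, 10.9, 3.73 and 9.46 CPM at PPE week 1, separate ranges, with a log2 fold change of 2.32 ± 0.85 (adjusted p = 0.111). Between the PPE weeks Odc1, which turns the ornithine made by arginase into putrescine, fell by 1.06 (0.0181), and Nos3, the endothelial nitric oxide synthase, rose by 0.87 ± 0.20 (0.0156). Nos3 had 30.8, 35.7, 32.2 and 38.3 CPM at PPE week 1 and 78.8, 57.2, 73.3 and 41.4 CPM at PPE week 2.

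Of 17 tested genes of prostanoid synthesis and reception, 0 rose and 1 fell at PPE week 1. Ptgis, the prostacyclin synthase of the vessel wall, had 82.4, 100, 107 and 133 CPM in saline, 52.6, 50.3, 64.8 and 58.1 CPM at PPE week 1 and 86, 152, 210 and 121 CPM at PPE week 2. It fell by 0.90 at PPE week 1 (adjusted p = 0.021) and rose by 1.33 ± 0.22 between the PPE weeks (0.00283), beside smooth muscle markers that were lower at PPE week 1 and whose part in this was not tested. The prostaglandin E receptor Ptger1 rose by 1.43 ± 0.30 at PPE week 2 against saline (0.0183), the only call of the 99 genes in that comparison. Ptgs1, the constitutive cyclooxygenase, had mean levels of 21.9 ± 6.71, 20.2 ± 2.74 and 20.3 ± 7.16 CPM in the 3 groups (SD, n = 4), and Ptges, which makes prostaglandin E from the product of Ptgs2, had 15.8 ± 3.35, 20.1 ± 1.48 and 19.8 ± 3.56 CPM. Neither passed the test in any comparison.

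The list around Acod1 itself held 23 genes of the citric acid cycle, citrate transport, succinate oxidation and the Nrf2 response, all tested. In the first week 0 of 23 were called by edgeR and by limma-voom, DESeq2 called 1, which was lower, and 2 had an unadjusted p under 0.05. Its median log2 fold change was -0.23 at PPE week 1 against saline, beside 5.69 for Acod1. Between the PPE weeks the median was 0.47, with an unadjusted p under 0.05 for 8 genes, 7 of them higher and 1 lower. DESeq2 called 4 higher and 1 lower there, limma-voom 0 and 1, and edgeR 0 and 1. The gene that fell by edgeR was Nfe2l2, which encodes Nrf2, by 0.65 on the log2 scale (adjusted p = 0.034), from 136, 163, 122 and 122 CPM to 67.7, 115, 71.2 and 93.1 CPM. Against saline, with 124, 98.6, 126 and 123 CPM, Nfe2l2 had a log2 fold change of 0.20 ± 0.17 at PPE week 1 (0.57).

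**Figure D4:**
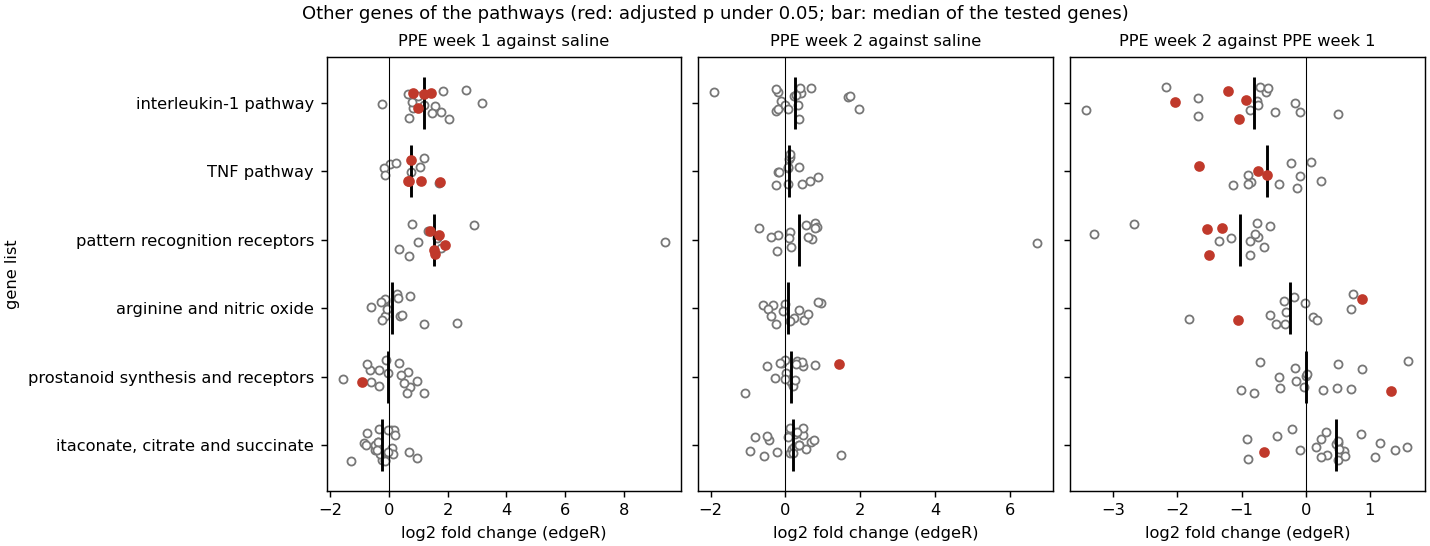
Fitted log2 fold change (horizontal axes, edgeR) of the tested genes of the 6 pathway lists in the 3 comparisons. Each point is a gene, red at an adjusted p under 0.05, and bars are list medians. The medians at PPE week 1 are 1.21, 0.74 and 1.54 for the upper 3 lists and -0.23 for the lowest, and the point at 9.39 is Marco, which was at 0 in all 4 saline libraries and was not called.

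The genes whose log2 CPM over the 12 libraries was most like that of Acod1, outside the 8, were Tnfrsf1b (Pearson r = 0.982), Nckap1l (0.978), Slc15a3 (0.978), Slc29a3 (0.977) and Glrx (0.976). The value is a description over 12 libraries that share the 3 groups, the libraries of which differ in leukocyte marker RNA, and has no p. Nckap1l had 188, 127, 142 and 157 CPM in saline, 336, 363, 310 and 326 CPM at PPE week 1 and 91.2, 251, 89.3 and 285 CPM at PPE week 2, with the same split of PPE week 2 into replicates 2 and 4 against 1 and 3. Among the 8 genes the likeness to Acod1 was 0.982 for Il1b, 0.885 for Arg1, 0.878 for Nos2, 0.795 for Ptgs2, 0.788 for Clec4e and 0.500 for Tnf. Placed among 12227 tested genes outside the 8, they would rank 2, 341, 376, 746, 782 and 2398 in that order. Within PPE week 2, replicates 2 and 4 lay above replicates 1 and 3 in each of the 7 genes past the filter, and not in Il1rn. The sums of macrophage, monocyte, neutrophil and T and NK cell markers split in the same way, whereas those of smooth muscle and endothelium did not. How many of all accessions split so was not counted, so the split is not read as a trait of the 7 genes.

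The values in the authors' deposited table are given here for the 7 genes past the filter. Whether its log2 fold changes were shrunken is not given in the sources used here, so its sizes are not compared with those of the edgeR fit. For Acod1 the authors' deposited table has a log2 fold change of 3.89 (adjusted p = 3.93e-12), for Il1b 2.30 (1.13e-05), for Arg1 1.80 (0.00406) and for Clec4e 1.71 (0.00842), all under 0.05. Nos2 (1.21, adjusted p = 0.134), Ptgs2 (0.45, 0.19) and Tnf (-0.13, 0.924) are above 0.05 in the authors' deposited table. For PPE week 2 the authors' deposited table lists Acod1 at 0.32, Il1b at 0.23, Clec4e at 0.11, Arg1 at -0.13 and Ptgs2 at -0.63, with adjusted p from 0.254 to 0.931.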

How the data were processed

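RNA of 12 mouse aortas, 1 animal per library per the labels' protocols, was extracted with TRIzol and made into TruSeq v2 libraries, a kit that does not record strand. Per the submitters' processing notes, bcl2fastq, DESeq2 and mm10 were used, and the sources used here name no aligner or counter. Raw counts per RefSeq accession were deposited, and the authors' own comparisons of each PPE group with saline give log2 fold changes, p-values and adjusted p-values, per the file headers. RefSeq and GENCODE tables named all but 139 of 34755 accessions, and the accession with the highest mean CPM stood for a gene. From the counts, accessions passing filterByExpr (12756) were scaled by TMM and fitted with edgeR 4.0.16 (R 4.3.3, glmQLFit, robust) over all 12 libraries, 1 mean per group, adjusted by Benjamini-Hochberg over the 12756, with 0.05 as threshold. The biological coefficient of variation was 0.512. The script was tested on simulated data. The genes and lists were chosen with earlier results of these data known. Named pathway genes were the called genes with the smallest adjusted p, at most 4 per list, plus 10 partners fixed by name. Alternatives were DESeq2 1.42.0, limma-voom 3.58.1, other scalings, no filter, 8-library fits, a replicate block, summed or halved counts, the ribosomal precursor removed or as a covariate, and each library left out. Deposited counts of 2 to 20 were even in 66 to 75.6% of cases, hence the halved counts.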

Additional observations from a re-analysis of the deposited data

Results flagged for a closer look

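Within a group of 4 libraries, a value far from the other 3 was found for Tnf in saline replicate 4 (3.62 CPM, the others at 0) and for Il1rn in saline replicate 1 (0.608 CPM, the others at 0). In normally distributed values such a gap arises by chance in about 1 of 20 groups, a rate that does not apply to these low counts. Each of these genes had few counts, so that 3 values of 0 beside any count in the fourth library are enough for it.

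Ptgs2 differed between the PPE groups, which differ in time of harvest and have no saline group at day 14: week 2 against week 1 had a log2 fold change of -1.25 (edgeR adjusted p = 0.0247), with all 4 PPE week 2 libraries below all 4 PPE week 1 libraries. Against saline the values were 0.49 at PPE week 1 and -0.76 at PPE week 2, neither past the threshold. The gene was chosen from these contrasts, so the value is a description. Its adjusted p over the alternatives ranged from 0.00277 to 0.133.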

How the results depend on the processing

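The direction at PPE week 1 against saline held under all alternatives run for Acod1 (5.13 to 6.30), Il1b (2.48 to 3.47), Nos2 (1.95 to 4.54), Arg1 (1.97 to 3.50), Ptgs2 (0.24 to 0.74) and Clec4e (1.98 to 3.10), and between the PPE weeks for the same 6 genes. Scaling by library size alone put the median log2 fold change of all accessions at 0.28, 0.54 and 0.23. In the main fit it was 0.00, 0.05 and 0.02. The calls moved from 508 higher and 499 lower to 1032 and 195, and from 166 and 172 to 1607 and 27. In the last comparison they moved from 481 and 360 to 681 and 75. The order is the first week over saline, the second week over saline and the second week over the first. In that order, accessions called were 1007, 338 and 841. DESeq2 gave 1646, 761 and 1487, fits of 8 libraries 2026, 74 and 521, and the ribosomal precursor share as a covariate 82, 0 and 69. That share did not overlap between saline and either PPE group, so the covariate fit can hardly separate share from group. Library-size scaling gave 1634 in the second. With 1 library left out they were 378 to 1395, 140 to 381 and 319 to 1213.

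Of the 7 genes, 1, 0 and 1 were called, and 0 in the second comparison under all alternatives. At PPE week 1, DESeq2 and limma-voom called 3, the fit of 8 libraries 4 and no low-count filter or the covariate 0. Between the PPE weeks DESeq2 called 3, limma-voom 5, and library-size scaling, 8 libraries and the covariate 0. With 1 library left out 0 to 1 and 0 to 2 were called. Of the 99 pathway genes 15, 1 and 14 were called. DESeq2 gave 32, 3 and 26, library-size scaling 24, 14 and 5, 8 libraries 35, 0 and 5, the covariate 0, 0 and 0, limma-voom 22 in the last, and leaving out 1 library 5 to 25, 0 to 3 and 2 to 22.

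Some directions at PPE week 2 against saline turned. Under limma-voom the values were -0.41 for Acod1, -0.11 for Il1b, -0.59 for Clec4e and 1.13 for Tnf, and with the covariate -0.29 for Il1b and -0.27 for Nos2. Arg1 had 0.20 under library-size scaling. Leaving out 1 library gave -0.21 to 1.12 for Il1b, -1.45 to 0.68 for Arg1, -0.29 to 0.87 for Clec4e and -1.06 to 5.69 for Tnf. At PPE week 1 Tnf had 2.06 under limma-voom and -0.79 to 5.90 with 1 library left out, and between the PPE weeks 0.05 under library-size scaling and -0.69 to 0.19. The cause of these changes was not tested.

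The replicate numbers did not pair the libraries, since same-numbered libraries correlated at -0.088 to 0.035. With the replicate block 204 accessions were called at PPE week 2 against saline, and 2, 0 and 2 of the 7 genes in the 3 comparisons. Acod1 then had an adjusted p of 0.111 at PPE week 1, and Tnf had 2.22 at PPE week 1 and 0.83 at PPE week 2 against saline, where Il1b had -0.09 and Clec4e -0.01. Il1rn, Nos2 and Tnf, with several transcript models each, had 57, 170 and 86 counts in all, which limits their precision.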
